A study of Mus musculus with 27 samples.

Results

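The 9 genes described here encode components and receptors of the complement system, namely C1qa, C1qb, C1qc, C2, C4b, Cfb, C3, C3ar1 and C5ar1. They were chosen by gene name, and each had 1 row among the 55852 entries of the table of injured muscle and 1 row among the 55677 entries of the table that holds control muscle. RNA was sequenced from muscle of male mice whose gastrocnemius had been injected with CTX (cardiotoxin from the venom of Naja pallida, a toxin that destroys muscle fibres, which then regenerate). WT (C57BL/6J) and KO mice were sampled on D1, D4, D7 and D14 (days after injection) with 3 libraries per genotype and day, 24 in all, and the 3 Control libraries came from WT muscle without CTX. The study's methods describe contralateral uninjured muscle at 24 h, so Control and WT D1 may share mice, but which libraries share a mouse is not given in the sources used here. The KO mice are described as carrying a global deletion of Gsdme (gasdermin E, which caspases can turn into a membrane pore), a deletion not limited to one cell type. The titles name these libraries KO while their genotype label reads Gsdme knockdown, and KO here means libraries with that title. The series text names thigh muscle as well as gastrocnemius, and ages were not given in the sources used here. No uninjured KO group is among the samples, so a genotype difference before injury could not be assessed. The deposited values were TPM (transcript abundance scaled to gene length and to the same total in every library), so levels of different genes may be set beside each other, but read depth is unknown.

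Complement is a set of blood and tissue proteins that cleave each other in a cascade and tag debris, dying cells and microbes for uptake. In the classical pathway the C1q molecule, built from chains encoded by C1qa, C1qb and C1qc, binds the target, and C4 and C2 then form the enzyme that cleaves C3. In the alternative pathway factor B, the product of Cfb, pairs with cleaved C3 and amplifies its deposition. The small fragments released on the way act on myeloid cells through the receptors encoded by C3ar1 and C5ar1. The liver makes most circulating complement, while C1q is made mainly by macrophages, which enter injured muscle to clear dead fibres.

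Stretches of 99 bases just upstream of the outermost annotated gene start are shown for the members with a long enough entry in the RefSeq promoter table (4 windows from 5 matched members, build GRCm38.p6, read 5′ to 3′ on the minus strand), because the C1q chains moved together and C3 did not follow them. Capitals mark matches on either strand to GAGGAA (the PU.1 box), ACTTCC (an Ets core), TTGCGNAA (a C/EBP site) and TATAAA (the TATA box). The windows lie at chr4:136886201-136886299 for C1qb, chr4:136893066-136893164 for C1qc, chr17:57228137-57228235 for C3 and chr6:122856162-122856260 for C3ar1.
C1qb: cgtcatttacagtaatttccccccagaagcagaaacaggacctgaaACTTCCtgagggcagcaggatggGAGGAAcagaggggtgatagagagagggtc
C1qc: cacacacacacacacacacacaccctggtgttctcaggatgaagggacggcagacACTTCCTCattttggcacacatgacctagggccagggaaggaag
C3: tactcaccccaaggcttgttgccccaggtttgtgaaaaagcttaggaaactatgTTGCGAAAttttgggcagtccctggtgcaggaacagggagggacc
C3ar1: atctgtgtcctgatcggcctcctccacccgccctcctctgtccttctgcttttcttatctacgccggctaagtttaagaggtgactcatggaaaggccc
The PU.1 box and the Ets core stood in the C1qb and C1qc windows. In C1qc the matches share bases within a single stretch, ACTTCCTC, and are not separate places. GAGGAA is present in 9.74% and ACTTCC in 9.95% of the 32851 windows of the same length in the table. TTGCGNAA stood in the C3 window and in 0.271% of all windows. TATAAA was in none of the 4 windows and in 5.52% of all windows, and the C3ar1 window held none of the motifs searched. A match describes letters and was not tested for binding.

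Gsdme itself had 2.76, 4.85 and 3.16 TPM in the WT D1 libraries and 1.53, 1.28 and 2.17 TPM in the KO D1 libraries. On D14 the WT libraries had 1.46, 2.21 and 2.26 TPM and the KO libraries 1.96, 1.77 and 1.27 TPM. All KO libraries lay below all WT libraries on D1, D4 and D7, and the genotypes overlapped on D14. Every library labelled KO still held Gsdme transcripts, at 0.95 to 2.17 TPM, and whether they came from outside the deleted stretch was not tested. The log2 difference averaged over days was -0.55 (SE 0.09, limma adjusted p = 0.0664). From 11785 to 14704 genes reached 1 TPM per library, with 25.4% to 61.4% of TPM in the top 50 genes. The muscle label was borne out by 6 myofibre markers (Acta1, Ckm and others), which summed to between 24727 and 108362 TPM per injured library. Hepatocyte markers (Alb, Apoa1 and 4 others) summed to at most 3.51 TPM in any injured library. KO D4 replicate 2 stood apart from its group, with 9 macrophage markers at 151 TPM in sum against 640.2 and 557 TPM and 6 neutrophil markers at 8.22 TPM against 43.9 and 38.0 TPM. KO D7 replicate 2 likewise had 135 TPM of the macrophage markers against 268 and 231 TPM. In KO D4 replicate 2 adipocyte markers summed to 117 TPM against 55.7 and 42.2 TPM. Its fibro-adipogenic progenitor markers summed to 1219 TPM against 3889 and 2548 TPM. Libraries of other groups differed from their replicates too. WT D1 replicate 3 had 105751 TPM of the myofibre markers against 64778 and 50501 TPM, and 58.4 TPM of the neutrophil markers against 280 and 620 TPM. WT D4 replicate 1 had 24727 TPM of the myofibre markers against 50040 and 52422 TPM. Its macrophage markers summed to 1089 TPM against 602 and 457 TPM. KO D1 replicate 3 had 3473 TPM of the neutrophil markers against 588 and 296 TPM. Which sequencing batch the WT D1 libraries came from is not given in the sources used here. So a batch cannot be told apart from genotype on D1, from day between WT D1 and WT D4, or from injury against Control.

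**Figure D1:**
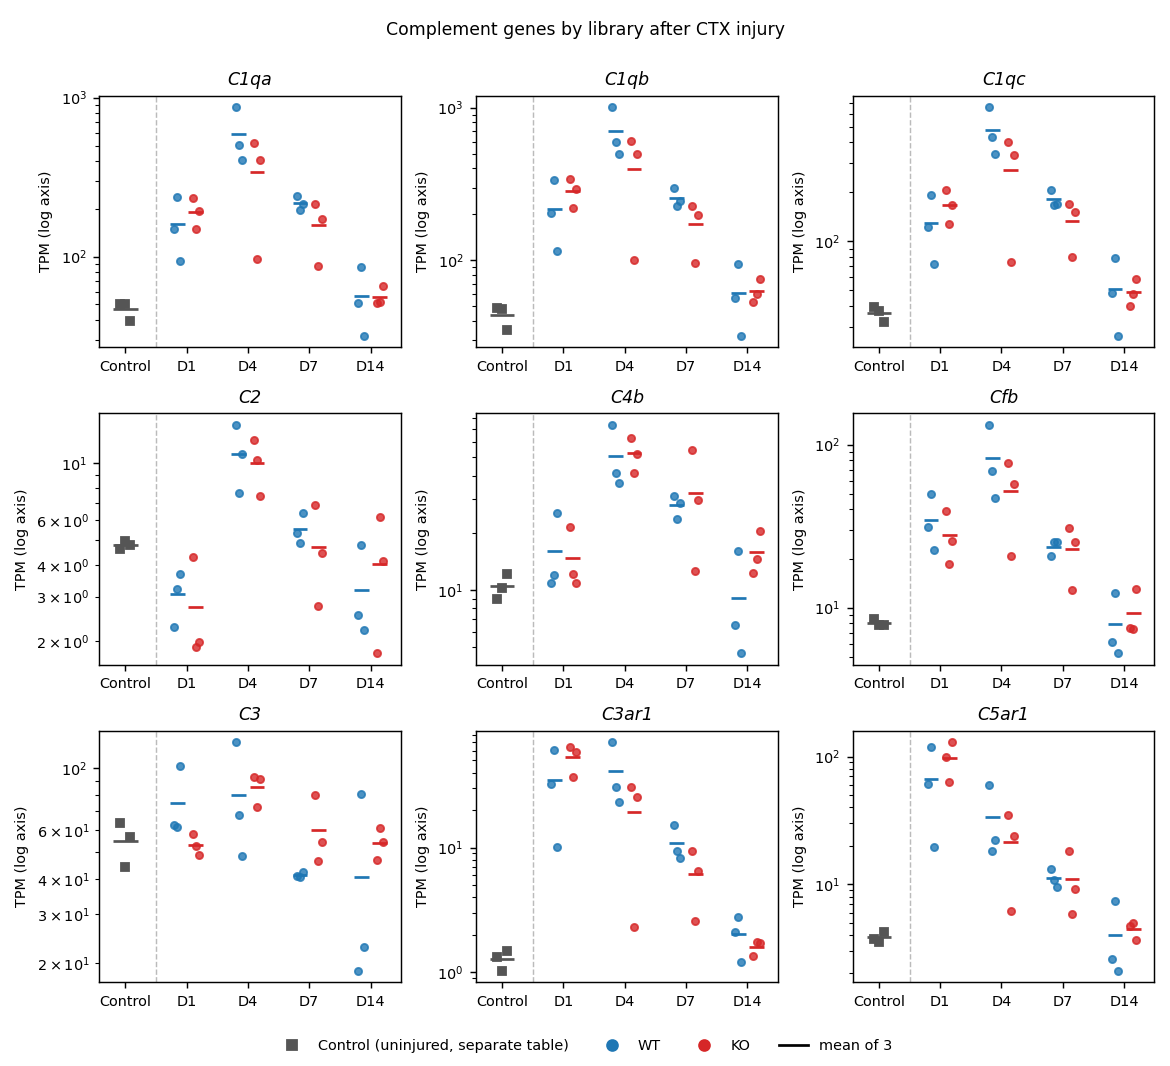
TPM of each complement gene (log axis) in every library, with uninjured Control as grey squares from the separate table, WT as blue points and KO as red points by day after CTX, and short lines for the mean of 3 libraries. The C1q chains and Cfb are highest on D4 in WT, C3ar1 and C5ar1 have their lowest injured group means on D14 and lower means in Control, and C3 stays between 18.8 and 124 TPM in all injured libraries.

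In WT muscle the C1q chains rose from D1 to D4 and fell from D7 to D14. On D4 and D7 their group means were above those of all other members in either genotype, whereas C3 was above all chains in Control, with a mean of 54.8 against 46.6 TPM for C1qa. Their genes lie next to each other on the minus strand of mm10 in the order C1qb (chr4:136880129-136886187), C1qc (chr4:136889804-136893065) and C1qa (chr4:136895917-136898803). C1qa, the A chain, had 50.1, 50.7 and 39.1 TPM in the Control libraries. After injury the WT libraries held 150.0, 238 and 93.9 TPM on D1 and 869.9, 503 and 405 TPM on D4. On D7 they held 239.9, 197 and 215 TPM, and on D14 51.1, 86.0 and 31.85 TPM. Every WT D4 library thus exceeded every WT D1 and D7 library, and the D14 libraries spanned the Control range. C1qa in KO muscle was 232, 149.7 and 194 TPM on D1, 519, 96.1 and 406 TPM on D4, 215, 87.8 and 171 TPM on D7, and 51.4, 51.7 and 65.0 TPM on D14. KO D4 replicate 2, the library with few macrophage transcripts, lay below all KO D1 libraries, while the other KO D4 libraries lay above them.

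C1qa was 1.67 log2 units higher in WT D1 than in Control (SE 0.31, limma adjusted p = 0.00356), C1qb 2.20 (SE 0.35, adjusted p = 0.0024) and C1qc 1.75 (SE 0.32, adjusted p = 0.0033). From D1 to D4 in WT, C1qa rose by 1.90 (SE 0.50, adjusted p = 0.0114), C1qc by 1.93 (SE 0.51, adjusted p = 0.0107) and C1qb by 1.74 (SE 0.54, adjusted p = 0.0277). The same step in KO was 0.53 for C1qa (SE 0.50, adjusted p = 0.469), and without KO D4 replicate 2 it was 1.28 (adjusted p = 0.0503). From D4 to D7 C1qa differed by -1.37 in WT (SE 0.50, adjusted p = 0.0748) and by -0.88 in KO (SE 0.50, adjusted p = 0.589). That KO step became -1.63 (adjusted p = 0.0267) without KO D4 replicate 2. From D7 to D14 in WT the chains fell, with differences of -2.04 for C1qa, -2.16 for C1qb and -1.92 for C1qc (SE 0.50 to 0.54, adjusted p from 0.0107 to 0.0132). In KO the D7 to D14 difference of C1qa was -1.39 (SE 0.50, adjusted p = 0.164). Whether a C1q change came from more macrophages or from more RNA in each cannot be told apart in bulk muscle.

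The other activating components, C4b, C2 and Cfb, lie in 1 stretch of chromosome 17, and they did not move together at the start. C4b (chr17:34728380-34743882) encodes complement C4, C2 (chr17:34862604-34898265) the protease that joins it, and Cfb (chr17:34856374-34862518) factor B. Both C2 and Cfb overlap the same-strand readthrough gene Gm20547, which reached at most 1.01 TPM. Cfb had 8.55, 7.79 and 7.85 TPM in Control and 31.0, 49.6 and 22.7 TPM in WT D1. It then stood at 132, 68.8 and 46.8 TPM in WT D4, 20.7, 25.1 and 25.3 TPM in WT D7, and 6.12, 12.4 and 5.25 TPM in WT D14. KO libraries held 39.1, 18.6 and 25.7 TPM on D1 and 76.8, 20.8 and 57.1 TPM on D4. On D7 and D14 the KO means were 22.9 ± 9.19 and 9.27 ± 3.17 TPM (SD, n = 3). All WT D1 libraries thus lay above Control, while the D14 libraries of either genotype surrounded the Control level.

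C2 was lower in every WT D1 library than in Control. It had 4.62, 4.95 and 4.79 TPM in Control and 2.28, 3.44 and 3.69 TPM in the WT D1 libraries of the same table. The C2 difference of -0.50 (SE 0.22) missed the threshold on TPM (limma adjusted p = 0.0715), and after median-of-ratios scaling it was -1.12 (adjusted p = 0.00624). On D4 C2 had 14.2, 7.64 and 10.9 TPM in WT and 12.4, 10.3 and 7.47 TPM in KO, above every D1 library. The rise from D1 was 1.53 in WT (SE 0.34, adjusted p = 0.00397) and 1.60 in KO (SE 0.34, adjusted p = 0.00429). KO D4 replicate 2, low in C1q, was not low in C2. By D14 C2 was at 3.17 ± 1.39 TPM in WT and 4.03 ± 2.17 TPM in KO (SD, n = 3).

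C4b rose from D1 to D4 in either genotype. It had 10.8, 11.95 and 25.5 TPM in WT D1 and 74.0, 41.3 and 36.7 TPM in WT D4. KO libraries held 21.4, 12.1 and 10.9 TPM on D1 and 63.4, 41.5 and 52.3 TPM on D4, so D4 exceeded D1 in every library. The step was 1.63 in WT (SE 0.46, adjusted p = 0.0159) and 1.79 in KO (SE 0.46, adjusted p = 0.0119). From D7, at 27.9 ± 3.91 TPM, C4b fell by 1.67 in WT (SE 0.46, adjusted p = 0.0149) to 6.56, 16.0 and 4.65 TPM on D14. The KO D14 libraries had 12.2, 14.5 and 20.5 TPM, and the genotypes overlapped. In the table with Control, the WT D1 libraries had 7.77, 9.26 and 17.6 TPM of C4b, between 22.5% and 30.8% less than the same libraries in the injured table. Against the Control values of 8.96, 10.2 and 12.1 TPM, the C4b difference in WT D1 was 0.06 (SE 0.29, adjusted p = 0.857). The near-identical neighbour C4a had at most 1.58 TPM, and how reads shared by the copies were assigned was not given in the sources used here, so C4b is uncertain to that extent. WT D1 libraries held 0.74, 1.42 and 0.22 TPM of C4a in the injured table and 0.74, 1.48 and 0.22 TPM beside Control. What lowered C4b between the tables was not tested.

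C3, the protein on which all routes of activation converge, had the narrowest range of the members. C3 (chr17:57203970-57228136) had 63.6, 44.3 and 56.6 TPM in Control and 62.7, 61.5 and 101.4 TPM in WT D1. WT libraries held 124, 67.8 and 48.5 TPM on D4, 41.1, 40.7 and 42.3 TPM on D7, and 18.8, 80.5 and 22.9 TPM on D14. In KO muscle C3 was 57.9, 52.7 and 48.9 TPM on D1, 92.9, 72.8 and 91.2 TPM on D4, 79.8, 46.3 and 54.3 TPM on D7, and 46.7, 61.1 and 54.4 TPM on D14. The highest injured library held 6.58 times the C3 of the lowest, close to the 7.87 times of C2, against 27.3 times for C1qa and 57.7 times for C3ar1. C3 passed the threshold in 0 of 10 comparisons of injured groups (adjusted p from 0.144 to 1), and it was 0.43 higher in WT D1 than in Control (SE 0.24, adjusted p = 0.147). WT D14 replicate 2, which had the most C3 of its group, also had the most macrophage markers (148 TPM in sum against 81.0 and 58.1 TPM). The reverse held in WT D1, where replicate 3 had the most C3 but the least macrophage markers (286 TPM against 597 and 958 TPM).

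The receptors were low in Control, and their highest group means fell on D1, except for C3ar1 in WT, where it was D4. C3ar1 (chr6:122847138-122856161), the receptor for the C3 fragment C3a, had 1.32, 1.03 and 1.49 TPM in Control, 32.7, 61.1 and 10.03 TPM in WT D1 and 63.8, 37.0 and 58.4 TPM in KO D1. On D4 it had 69.9, 30.9 and 23.0 TPM in WT and 30.6, 2.33 and 25.3 TPM in KO. D14 libraries averaged 2.03 ± 0.787 TPM for WT mice and 1.61 ± 0.231 TPM for KO mice (SD, n = 3). C5ar1 (chr7:16246743-16259540), the receptor for C5a, had 3.73, 3.50 and 4.24 TPM in Control, 60.4, 119.8 and 19.5 TPM in WT D1 and 99.3, 62.8 and 129 TPM in KO D1. On D4 it had 59.7, 18.3 and 22.2 TPM in WT and 34.6, 6.11 and 23.9 TPM in KO. All WT D1 libraries were above all Control libraries for either receptor, and WT D1 replicate 3, which had the least macrophage markers of its group (286 against 597 and 958 TPM), was the lowest of them.

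C3ar1 was 3.65 log2 units higher in WT D1 than in Control (SE 0.54, limma adjusted p = 0.00204) and C5ar1 3.46 (SE 0.54, adjusted p = 0.00232). From D1 to D4 in WT, C3ar1 differed by 0.41 (SE 0.69, adjusted p = 0.722) and C5ar1 by -0.83 (SE 0.62, adjusted p = 0.386). In KO, C5ar1 fell by 2.35 over the same step (SE 0.62, adjusted p = 0.0145), and without KO D4 replicate 2 the difference was -1.66 (adjusted p = 0.077). For C3ar1 the KO step was -1.91 (SE 0.69, adjusted p = 0.0561), and without that library it was -0.87 (adjusted p = 0.331). From D4 to D7 in WT, C3ar1 differed by -1.71 (SE 0.69, adjusted p = 0.0952) and C5ar1 by -1.31 (SE 0.62, adjusted p = 0.146). From D7 to D14 in WT, C3ar1 fell by 1.97 (SE 0.69, adjusted p = 0.0371), while C5ar1 differed by -1.42 (SE 0.62, adjusted p = 0.0813).

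Counted together, 6 of 9 members (C1qa, C1qb, C1qc, Cfb, C3ar1 and C5ar1) were called higher in WT D1 than in Control, where 61.1% of the 13041 tested genes were called and 55.4% were called higher, so the members' share is near that background. The median difference was 1.75 over the members and 0.66 over all tested genes. Median-of-ratios scaling removed that shift, lowered the share of calls that were higher from 90.8% to 50.1%, and left the members' median at 0.97 with the same number called higher and C2 called lower. From D1 to D4 in WT, 5 of 9 members rose, where 19.8% of genes were called and 14.6% were called higher. The median was 1.53 over the members and 0.17 over all genes. This count was 3 without WT D1 replicate 1 (15.5% of genes called), 2 without WT D1 replicate 3 (13.2%) and 1 without WT D4 replicate 1 (15.4%), so the lower counts are near the background. The share of calls that were higher in this step was 73.5% on TPM and 46.5% after median-of-ratios scaling, which kept 5 members called. The same step in KO gave 2 members higher and 1 lower, where 19.4% of genes were called, and 1 member in all without KO D1 replicate 3 (6.95% of genes called).

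From D4 to D7 in WT, Cfb alone among the members passed the threshold, falling by 1.63 (SE 0.46, limma adjusted p = 0.0305), where 12.3% of genes were called. Leaving out any of WT D4 replicates 1 and 2 or the WT D7 replicates brought that count to 0 (1.36% to 10.2% of genes called). All 9 members were lower in every WT D7 library than in every WT D4 library, as were 33.2% of all tested genes. Of all calls in this step 24.6% were higher on TPM and 50.3% after median-of-ratios scaling, with medians over all genes of -0.24 and -0.01. For the same step in KO no gene was called (0%, with 1555 genes at an unadjusted p under 0.05). Without KO D4 replicate 2 the KO step gave 5 of 9 members, where 8.79% of genes were called. From D7 to D14 in WT, 6 members fell (the C1q chains, C3ar1, C4b and Cfb), where 31.8% of genes were called and 30.9% were called lower. Cfb fell by 1.55 in that step (SE 0.46, adjusted p = 0.0206). The count was 0 without WT D7 replicate 1 (4.04% of genes called) and 0 without WT D14 replicate 3 (1.82%). Of all calls in this step 2.9% were higher on TPM and 37.3% after median-of-ratios scaling, under which the 3 C1q chains remained called. In KO 0 of 9 members passed from D7 to D14, where 0.56% of genes were called (14.8% of them higher on TPM and 29.3% after median-of-ratios scaling) and 3035 had an unadjusted p under 0.05.

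Between the libraries labelled KO and those labelled WT, 0 of 9 members passed the threshold on any day. Over all 15718 tested genes limma called 0.00636% (1 gene) on D1, and 0% in the D4, D7 and D14 comparisons. An unadjusted p under 0.05 was reached by 845 genes on D1, 3568 on D4 (C1qc among them, the only member to do so on any day), 481 on D7 and 324 on D14. On D4 the KO minus WT difference was -1.04 for C1qa (SE 0.50), -1.10 for C1qb (SE 0.54) and -1.08 for C1qc (SE 0.51), with limma adjusted p from 0.217 to 0.223. C3ar1 differed by -1.43 (SE 0.69, adjusted p = 0.22), Cfb by -0.73 (SE 0.46, adjusted p = 0.298) and C5ar1 by -0.70 (SE 0.62, adjusted p = 0.437). The median over all genes on D4 was -0.28. These D4 differences rested largely on KO D4 replicate 2, without which C1qa differed by -0.29 (adjusted p = 0.918), C3ar1 by -0.39 (adjusted p = 0.917), C5ar1 by -0.01 (adjusted p = 1) and Cfb by -0.18 (adjusted p = 0.95). C3 differed by 0.20 on D4 (SE 0.39, adjusted p = 0.734) and by 0.31 without that library. On the WT side, replicate 1 was the highest D4 library of the C1q chains, Cfb and the receptors. It had 870 TPM of C1qa against 503 and 405 TPM. Leaving out WT D4 replicate 1 also gave 0 members called on D4, and how far it moved each estimate is not given here. On D7 C1qa differed by -0.55 (SE 0.50, adjusted p = 0.776). On D1 the largest estimate was that of C3ar1, 0.89 (SE 0.69, adjusted p = 0.873), and on D14 that of C4b, 0.87 (SE 0.46, adjusted p = 1). A test of whether the genotype difference changed between days called 0% of genes and 0 members (adjusted p from 0.527 to 0.853, with 1203 genes at an unadjusted p under 0.05).

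**Figure D2:**
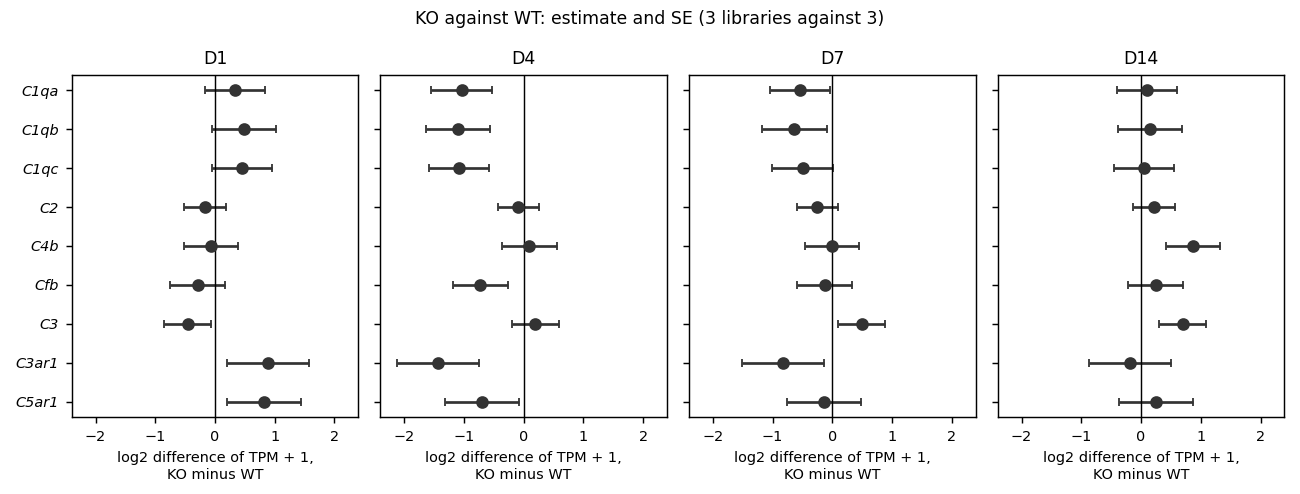
Log2 difference of TPM + 1 between KO and WT for each member and day, with points for the limma estimate from 3 libraries against 3 and bars for its SE. The SE pools the spread within all injured groups, so each member has the same bar on every day. C1q chains, Cfb and the receptors lie below 0 on D4 and C2, C4b and C3 lie near 0, but no estimate passed the adjusted threshold on any day.

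C3 was the only member whose libraries separated by genotype. All KO D1 libraries (48.9 to 57.9 TPM) lay below all WT D1 libraries (61.5 to 101.4 TPM), with a difference of -0.46 (SE 0.39, adjusted p = 0.873). On D7 all KO libraries (46.3 to 79.8 TPM) lay above all WT libraries (40.7 to 42.3 TPM), with a difference of 0.49 (SE 0.39, adjusted p = 0.776). On D14 the difference was 0.70 (SE 0.39, adjusted p = 1) and the libraries overlapped. Non-overlapping genotypes were found for 6.71% of tested genes on D1 and 16.5% on D7, and for 14% on D4 and 8.42% on D14, so 1 of 9 members on D1 and on D7 is near that background, and 0 of 9 did so on D4 and D14.

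Ratios within a library do not depend on how the library was scaled, and they showed that the members did not rise in step. These ratios were chosen after the values were seen and carry no test. C1qb stood at 0.889 to 0.981 times C1qa in the Control libraries and at 1.25 to 1.43 times in the WT D1 libraries of the same table. In the injured table the ratio was 1.22 to 1.41 in WT D1 and 1.48 on average in KO D1, and 1.03 to 1.16 in KO D14. C1qc held a steadier ratio to C1qa, with group means between 0.779 and 0.895. Cfb exceeded C2 by a factor of 1.57 to 1.85 in Control and of 6.13 to 14.4 in WT D1 of the same table, and by 2.36 to 2.59 in WT D14. Measured against the receptor C3ar1, C1qa was 26.2 to 49.2 times as abundant in Control, 5.95 times on average in WT D1, 12.5 to 17.6 times in WT D4 and 24.4 to 30.9 times in WT D14. C1q chains made up 60.6% to 71.3% of the summed TPM of the members in WT D1, 84.2% to 86.8% in WT D4 and 63.8% to 83.0% in KO D4.

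**Figure D3:**
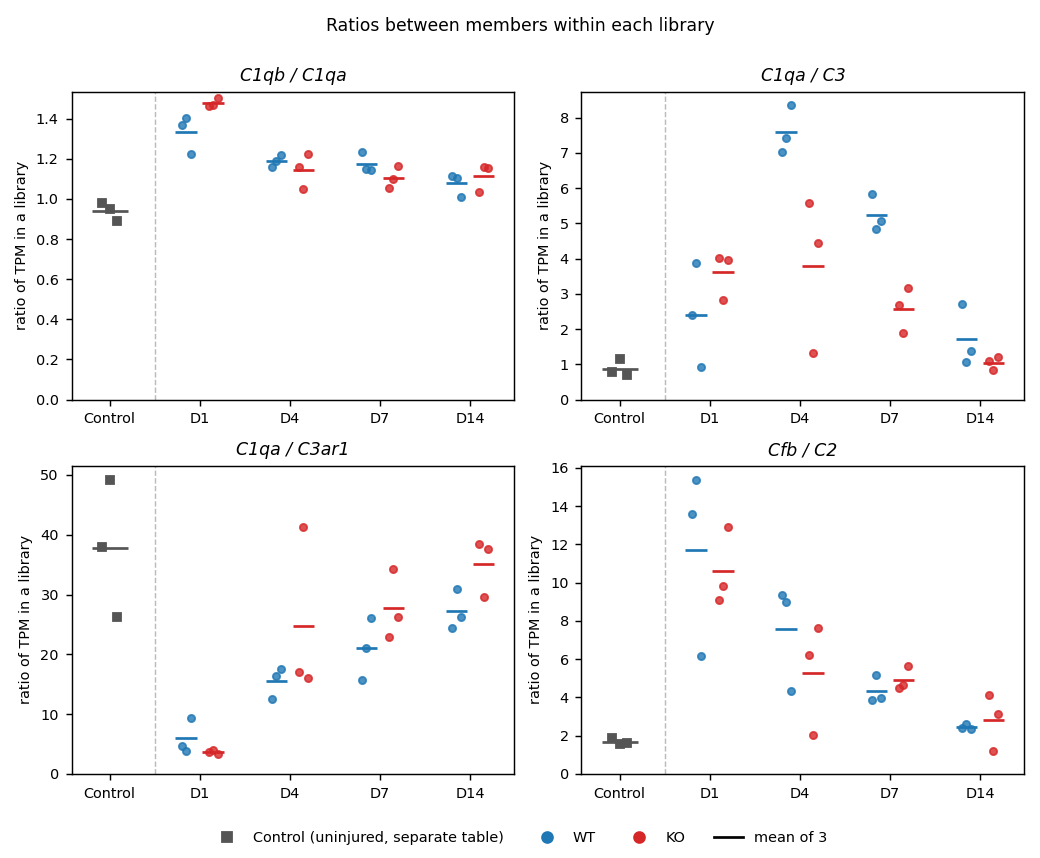
Ratio of the TPM of 2 members within each library (linear axes from 0), for Control as grey squares, WT as blue points and KO as red points by day, with short lines for the mean of 3. Cfb over C2 is highest on D1, C1qa over C3ar1 is lowest on D1 and climbs to D14, and C1qa over C3 peaks in WT D4 at 7.04 to 8.36.

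C1qa over C3 was 7.04 to 8.36 in WT D4 and 1.32 to 5.59 in KO D4, and 4.84 to 5.84 in WT D7 and 1.90 to 3.16 in KO D7, without overlap on either day. A ratio to C3 that was lower in every KO library than in every WT library was found for 26% of all tested genes on D4 and for 67.8% on D7, so on D7 the separation is shared with most genes. On D14 the ratio was 1.07 to 2.72 in WT and 0.847 to 1.20 in KO, and the genotypes overlapped.

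Macrophage markers (Adgre1, Cd68, Csf1r, Mertk, Fcgr1, Cd163, Lyve1, Folr2 and Mrc1) followed the receptors more closely than the C1q chains. Summed over the 9 genes they reached 69.0 to 78.5 TPM in Control, 286 to 958 TPM in WT D1, 457 to 1089 TPM in WT D4, 249 to 312 TPM in WT D7 and 58.1 to 148 TPM in WT D14. KO libraries held 604 to 876 TPM on D1, 151 to 640.2 TPM on D4, 135 to 268 TPM on D7 and 78.0 to 102 TPM on D14, and none of the 9 markers was at 0 in any group. From D1 to D4 the mean of the sum went from 614 to 716 TPM in WT and from 749 to 449 TPM in KO, while the C1qa mean went from 161 to 593 TPM and from 192 to 340.4 TPM. The markers themselves differed in direction over this step, with higher D4 means for 5 of 9 in WT (Adgre1, Csf1r, Folr2, Mertk and Mrc1) and for 2 of 9 in KO (Csf1r and Folr2). Pearson's r of log2(TPM + 1) with the mean of these markers was taken over the 24 injured libraries, which share the course of injury. It was 0.985 for C3ar1, 0.945 for C5ar1, 0.91 for C1qb, 0.884 for Cfb, 0.863 for C1qa and 0.859 for C1qc. For C4b it was 0.463, for C3 0.54 and for C2 0.299. The 6 neutrophil markers (S100a8, S100a9 and others) correlated most with C5ar1 (r = 0.933) and C3ar1 (r = 0.832), and they summed to 58.4 to 620.5 TPM in WT D1, 296 to 3473 TPM in KO D1 and 1.58 to 2.26 TPM in WT D14. C4b (r = 0.752) and C2 (r = 0.718) followed the 6 fibro-adipogenic progenitor markers (Pdgfra, Dcn, Lum, Dpt, Pi16 and Col1a1) more closely than the macrophage markers. The C1q chains were not far below, with r of 0.644 for C1qa, 0.576 for C1qb and 0.654 for C1qc with the progenitor markers. Those markers summed to 741 to 1204 TPM in WT D1, 3430.4 to 3992 TPM in WT D4 and 1219 to 3889 TPM in KO D4. With the adipocyte markers (Adipoq, Plin1, Cidec and Lep) r was 0.521 for C4b, 0.537 for C2 and 0.476 for C3. It was 0.0107 for C1qa and -0.256 for C3ar1. T and B cell markers stayed at or under 6.12 TPM in sum in the injured libraries. The part of cell composition in the members' differences was not tested.

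**Figure D4:**
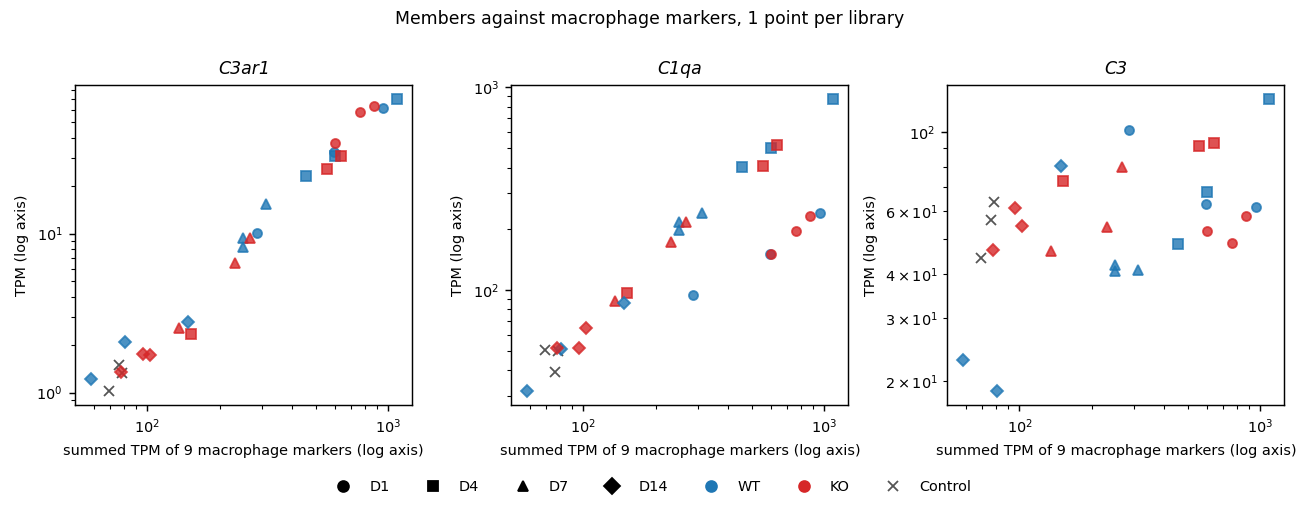
TPM of C3ar1, C1qa and C3 (log axis) against the summed TPM of 9 macrophage markers (log axis), 1 point per library, with shapes for days, blue for WT, red for KO and grey crosses for Control. C3ar1 follows the markers over all days (r = 0.985 on log2 values of the injured libraries), the D1 libraries hold less C1qa for the same marker level than the D4 libraries, and C3 follows the markers loosely (r = 0.54).

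Among themselves the members fell into looser and tighter pairs over the same 24 libraries. C1qa correlated with C1qc at r = 0.997, with C1qb at 0.993 and with Cfb at 0.961, whereas C3ar1 and C5ar1 correlated at 0.951 and C4b and C2 at 0.879. C2 and C5ar1 were at 0.0541. Among the other tested genes, those most like C1qa were Glb1 (the lysosomal beta-galactosidase, r = 0.991), Pdia5 (0.989), Dap (0.987), Bex3 (0.985) and Efemp2 (0.984). The genes most like C3ar1 were Nckap1l (0.995), Slc37a2 (0.994), Myo1f (0.994), Lgmn (a lysosomal protease, 0.994) and Ctsb (cathepsin B, 0.993). For C4b they were Gas6 (a bridge between dying cells and phagocytes, 0.912), Trf (transferrin, 0.909), Aoc3 (0.897), Fcgrt (0.884) and Rtn4rl1 (0.879). C3 had no gene as close, the first being Clec10a (a lectin of macrophages and dendritic cells, 0.784), Vegfd (0.758), Hp (haptoglobin, 0.733), Cd209g (0.728) and Ces2g (0.72).

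The rest of the pathway was read from a list of 43 other complement genes, of which 26 were tested in the injured table. The 17 that were not tested had group means of at most 0.787 TPM and included Hc (complement C5) and the terminal components C6, C8a, C8b and C9. In WT D1 against Control, 12 of 23 tested list genes were called higher and 3 lower (65.2%, against 61.1% of all genes), and the list's median was 0.76. Itgam and Itgb2, the chains of complement receptor 3, rose by 4.37 (SE 0.52) and 4.24 (SE 0.53), Cfp (properdin, which stabilises the alternative pathway enzyme) by 2.84 (SE 0.43) and Itgax by 2.33 (SE 0.51), with limma adjusted p from 0.00132 to 0.00619. Cfd (factor D, the protease that cleaves factor B) fell by 2.53 (SE 0.77, adjusted p = 0.0216), and the 4 adipocyte markers went from 53.0 to 60.0 TPM in sum in Control to 1.67 to 35.5 TPM in WT D1. From D1 to D4, 4 of 26 list genes were called higher and 2 lower in WT (23.1%, against 19.8% of all genes) and 7 higher and 5 lower in KO (46.2%, against 19.4%). Counts and values of the list genes were not recomputed with a library left out. Without KO D1 replicate 3 this KO step called 6.95% of all genes. In WT, Masp1 rose by 1.33 (SE 0.30, adjusted p = 0.00362), Fcna (a ficolin, which starts the lectin pathway) by 1.24 (SE 0.30, adjusted p = 0.00615) and C1s1 (the protease of the C1 complex) by 1.13 (SE 0.25, adjusted p = 0.00395). Clu (clusterin, an inhibitor of the terminal complex) fell by 2.18 in WT (SE 0.40, adjusted p = 0.000895) and by 1.96 in KO (SE 0.40, adjusted p = 0.00296), and C7 (a terminal component) fell by 1.65 in WT (SE 0.53, adjusted p = 0.034).

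In KO 4 receptor or C1q-binding genes besides the members fell with Clu from D1 to D4. The differences were -2.96 for Itgam (SE 0.59, adjusted p = 0.00266), -2.45 for Itgb2 (SE 0.59, adjusted p = 0.00874) and -1.37 for C5ar2 (SE 0.36, adjusted p = 0.0139), and -1.30 for Calr (calreticulin, which binds C1q, SE 0.30, adjusted p = 0.00658). From D4 to D7 in WT, 3 list genes were higher and 1 lower (15.4%, against 12.3% of all genes). Cd59b, Cd55 and Cd59a, which shield cells from complement, rose by 1.45 (SE 0.40), 0.97 (SE 0.27) and 0.71 (SE 0.19), and Fcna fell by 1.15 (SE 0.30), with adjusted p from 0.022 to 0.0303. From D7 to D14 in WT, 1 list gene was higher and 10 were lower (42.3%, against 31.8% of all genes), with a median of -0.61 over the list and -0.45 over all genes. The differences were -2.08 for Itgb2 (SE 0.59), -2.03 for Itgax (SE 0.61), -1.67 for Itgam (SE 0.59) and -1.36 for Cd93 (SE 0.34), while C7 rose by 1.67 (SE 0.53), with adjusted p from 0.0107 to 0.0391. In KO 0 list genes were called from D4 to D7 or from D7 to D14, and between genotypes 0 of 26 were called on any day. C4a, the near copy of C4b, had group means from 0.317 to 0.933 TPM and was called in no comparison of injured groups.

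Cfd is named here for its D14 values, after these were seen. The WT D14 libraries held 41.0, 70.0 and 45.9 TPM and the KO D14 libraries 268, 1058 and 798 TPM. They did not overlap, as was found for 8.42% of tested genes on D14. On D7 Cfd did not overlap either, at 74.3 to 118 TPM in WT and 124 to 195 TPM in KO (16.5% of tested genes). On D4 KO replicate 2 held 978 TPM against 267 and 264 TPM in the other KO libraries, and WT held 92.8 to 281 TPM. Uninjured Control muscle, in the separate table, held 339, 421 and 302 TPM of Cfd. Its adipocyte markers summed to 53.0 to 60.0 TPM. The D14 difference of 3.56 (SE 0.77) did not pass the threshold over all genes (limma adjusted p = 0.221). The 4 adipocyte markers, Adipoq, Plin1, Cidec and Lep, summed to 5.59 to 10.8 TPM in the WT D14 libraries and to 38.6 to 160 TPM in the KO D14 libraries. Factor B and C3, with which factor D acts, overlapped between the genotypes on that day, with Cfb at 6.12 to 12.4 TPM in WT and 7.42 to 12.9 TPM in KO.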

How the data were processed

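RNA-seq libraries of 27 muscle samples were used, 3 per group, grouped by their titles. The authors deposited TPM per gene (libraries from a SMARTER mRNA kit and paired-end reads, with build mm10 in the submitters' processing notes), in a table of 24 injured libraries and another of Control and WT D1 libraries. The aligner, counting tool, strand setting and filters were not given in the sources used here. Depth is unknown, since TPM keeps no read number. Each table was fitted separately in limma 3.58.1 (R 4.3.3) on log2(TPM + 1), with the group as the only term, a mean-variance trend, genes of at least 1 TPM in at least 3 libraries (15718 and 13041 tested) and Benjamini-Hochberg adjustment over all tested genes. A call is an adjusted p below 0.05, and tests are two-sided. Fold changes on this scale understate those of low genes. The script was tested on simulated data. Members, gene lists and tests were chosen with earlier results of these data known. Named genes are all members, C4a, up to 5 called list genes of largest change per comparison, and the 5 genes most like C1qa, C3, C4b and C3ar1. Gene positions are from GENCODE M21 for mouse (GRCm38, the same assembly as mm10). The samples are described as biological triplicates. The p-values rest on the spread between replicates pooled over all groups of a table, not on that of the compared groups alone. Deposited group means were not used.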

Additional observations from a re-analysis of the deposited data

Results flagged for a closer look

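C3 was set aside because its KO libraries all moved one way on D1 and the opposite way on D7. The KO minus WT difference was -0.46 on D1, with every KO library below every WT library, and 0.49 on D7, with every KO library above every WT library. Neither passed the threshold, and the limma test of a genotype difference that changes between days gave an adjusted p = 0.533 for C3. The pair of D1 and D7 was not tested by itself. On D1 the sequencing batch of the WT libraries is not known, so genotype and batch cannot be told apart there. Groups of 3 libraries were not tested for outliers.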

How the results depend on the processing

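Of the 5 counts of called members above 0, 49 of 65 alternatives stayed within 1.5 times of the reported count, and 21 called member values kept their sign in all 273 and their call in 229. Library quality weights, which concentrated on 1 library per group in several groups (0.116 to 4.92), gave more calls over all genes as well as among members: 1 member for KO against WT on D1 (17.4% of genes called), 7 from D4 to D7 in WT (49.9%), 8 from D1 to D4 in KO (51.5%), 6 from D4 to D7 in KO (33.6%) and 7 from D7 to D14 in KO (42.4%). Without a filter on low genes the count from D4 to D7 in WT was 0. Median-of-ratios and quantile scaling each gave 3 from D7 to D14 in WT. Leaving out 1 library at a time gave 1 to 6 members from D1 to D4 in WT, 1 to 4 in KO, 0 to 1 from D4 to D7 in WT, 0 to 5 in KO and 0 to 8 from D7 to D14 in WT.

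Signs changed only for member values that were not called. Against Control, C3 was -0.35 after median-of-ratios and -0.15 after quantile scaling, and C4b was -0.65, -0.74 and, with library weights, -0.33, with a range from -0.26 to 0.28 when 1 library was left out. With library weights, C5ar1 in KO against WT on D4 was 0.27 and C3ar1 from D1 to D4 in WT was -0.046. With 1 library left out, the latter ran from -0.27 to 0.97 and C3 in KO against WT on D4 from -0.10 to 0.56. The causes were not tested.

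Same-numbered WT and KO libraries did not deviate together (r from -0.401 to 0.395 over 12 pairs), and neither did same-numbered Control and WT D1 libraries (r from 0.00213 to 0.0611 over 3 pairs), so the numbers were not taken as pairs. For Control and WT D1 this cannot decide whether mice were shared, because injured and uninjured muscle of a mouse need not deviate together. A replicate block gave 4 members from D1 to D4 in KO, adding C3ar1 (adjusted p = 0.0487), and changed no other call among the reported results. With 3 libraries per group and unknown depth, smaller differences may have gone undetected.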

Other observations

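The hepatocyte markers, of interest because the liver makes much of the circulating complement, summed to 0.13 and 0.43 TPM in Control replicates 1 and 3 and to 18.8 TPM in Control replicate 2. That library had the least C3 of the Control group (44.3 against 63.6 and 56.6 TPM).

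The readthrough gene that spans Cfb and C2 had group means of 0.0167 TPM in Control and 0.0667 TPM in WT D1 of the same table. The members summed to 193 to 229 TPM in the Control libraries and to 129 to 383 TPM in WT D14 and 219 to 296 TPM in KO D14, given side by side because the tables were made separately.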
